A study of Mus musculus with 9 samples.

Results

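The genes described here are 10 immediate early genes of the AP-1, EGR and NR4A families: Fos, Fosb, Jun, Junb, Jund, Egr1, Egr2, Egr3, Egr4 and Nr4a1. They were taken by symbol from a table of 46078 mouse genes, each symbol matched 1 gene, and all 10 were among the 15401 genes with enough counts to be tested. They were chosen because the families had been seen to differ between lymphoma and CD4 T cells, and because paralogues (related genes of 1 family) took opposite directions. The lymphoma against CD4 values of these 10 genes are therefore a description and carry no test.

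Transcript 3′ ends were sequenced in 6 lymphoma samples and 3 control samples of C57BL/6J mice. The lymphoma samples were T cell tumours driven by MYCN, a transcription factor of the MYC family, and were collected from the thymus (labelled 34, 53, 56, 70, 72 and 86). The controls were CD4+ T cells from the spleen, numbered 1, 2 and 3, so disease, MYCN and organ changed together and cannot be told apart. The promoter or Cre line behind MYCN, the ages, the way CD4 cells were purified and the number of animals are not given in the sources used here, so p-values measure only the spread between these samples, which may be technical.

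Immediate early genes are transcribed within minutes of a signal, with no new protein needed, and their short-lived messenger RNAs decay quickly. FOS proteins (Fos, Fosb) bind DNA only as partners of JUN proteins (Jun, Junb, Jund), and the pair, AP-1, works with NFAT at cytokine genes when a T cell receptor is engaged. EGR proteins are zinc finger factors downstream of ERK signalling, with Egr2 and Egr3 best known in T cells for restraint and tolerance, and Nr4a1 (Nur77) is an orphan nuclear receptor used as a reporter of T cell receptor signal strength. The same genes are also induced by tissue dissociation, warming and other handling.

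Promoter sequence is shown because the members are classically induced through a small set of motifs next to their start sites, and because Fos, Fosb and Jun were low together in lymphoma here while Egr4 was high. RefSeq start sites on GRCm38.p6 were matched for 8 of the 10 members, all but Egr1 and Egr3. The Jund window is counted but not shown: it ends at position 70697738 of chromosome 8, well before the annotated Jund gene, and held none of the motifs. Each line gives the 130 bases before the start site, 5′ to 3′ on the strand of the gene, in lower case. Capitals mark matches to the motifs named in the next paragraph. The Egr2 window belongs to the 3rd of 5 RefSeq starts and was chosen after its motifs were seen. It lies in an intron of longer Egr2 transcripts, as the Nr4a1 window does for a longer Nr4a1 transcript.
Fos, chr12:85473760-85473889, plus strand: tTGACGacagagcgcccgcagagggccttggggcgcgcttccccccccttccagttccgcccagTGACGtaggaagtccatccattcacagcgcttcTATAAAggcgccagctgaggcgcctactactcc
Fosb, chr7:19310046-19310175, minus strand: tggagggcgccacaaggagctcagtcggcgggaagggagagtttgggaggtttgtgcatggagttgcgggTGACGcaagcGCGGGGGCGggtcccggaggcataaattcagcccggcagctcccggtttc
Jun, chr4:95052223-95052352, minus strand: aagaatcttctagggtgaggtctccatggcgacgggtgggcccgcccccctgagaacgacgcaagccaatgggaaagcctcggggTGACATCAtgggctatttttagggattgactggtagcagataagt
Junb, chr8:84978749-84978878, minus strand: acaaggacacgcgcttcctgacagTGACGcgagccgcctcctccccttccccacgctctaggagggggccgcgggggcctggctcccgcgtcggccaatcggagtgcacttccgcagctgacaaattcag
Egr2, chr10:67537739-67537868, plus strand: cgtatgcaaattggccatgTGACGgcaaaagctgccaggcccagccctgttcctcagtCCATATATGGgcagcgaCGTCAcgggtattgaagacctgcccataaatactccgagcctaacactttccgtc
Egr4, chr6:85513590-85513719, minus strand: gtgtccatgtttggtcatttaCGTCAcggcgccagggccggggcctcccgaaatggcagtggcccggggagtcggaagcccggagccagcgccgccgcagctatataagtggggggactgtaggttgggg
Nr4a1, chr15:101266716-101266845, plus strand: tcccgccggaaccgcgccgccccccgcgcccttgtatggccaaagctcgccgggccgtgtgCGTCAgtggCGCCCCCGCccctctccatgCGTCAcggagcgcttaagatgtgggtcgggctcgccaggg

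Motifs were searched on both strands of the 250 bases before each start and compared with 32851 RefSeq windows of that length. The core of the cAMP response element (CRE), TGACG, which CREB and ATF factors bind, was present for 6 of the 8 members (Fos, Fosb, Junb, Egr2, Egr4 and Nr4a1) and in 17.8% of all windows. The full element TGACGTCA, which contains the core, was found for 0 of the 8 members and in 1.55% of windows. The AP-1 site TGANTCA was found for 0 of the 8 and in 6.75% of windows. The related element TGACATCA, known from the Jun promoter and bound by JUN and ATF2, was present at Jun alone among the 8 and in 2.93% of windows. The EGR site GCGNGGGCG, which overlaps GC-rich sequence bound by other zinc finger factors, was present at Fosb and Nr4a1 and in 4.7% of windows. The CArG box of the serum response factor was present at Egr2 alone and in 1.47% of windows. Bases farther than 250 from a start were not searched, and Egr1 and Egr3 had no window. An absent match therefore does not show that a gene lacks the element. A TATAAA match was present at Fos alone and in 12.4% of windows. Egr2 had more chances of a match than the others because it has 5 windows, which overlap in part. Egr4, the member with higher values in lymphoma, shared the CRE core with Fos, Fosb and Junb, which had lower values. A match is a description of the letters in the window and not a binding site.

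Several libraries bear on the results that follow. Counts in genes ranged from 8099960 to 15769679 per library, and levels are given as CPM (counts scaled to 1000000 per library) after TMM scaling. Among the controls, CD4 3 stood apart for genes of this kind: 7 of the 10 members were highest there of the 3 CD4 libraries, as were 20 of 24 tested genes of a list of other early response genes and 12 of 13 heat and handling stress genes, against 32% of all tested genes. Among the tumours, lymphoma 53 stood apart. The T cell identity of the samples was checked with 10 markers, whose summed level was 1540 to 3090 CPM in lymphoma and 2900 to 2960 CPM in CD4. Of these 10, Cd4 and Cd2 fell in lymphoma, and Cd4 was at 6.04 to 71.9 CPM in the tumours and at 263, 257 and 199 CPM in CD4 1, 2 and 3. The CD8 genes Cd8a and Cd8b1 were also read in the CD4 libraries, at 25.6 to 31.8 and 35.9 to 44.9 CPM. The CD4 libraries also held transcripts of another cell type: 10 B cell markers summed to 1280 to 1540 CPM there and to 7.76 to 13.7 CPM in lymphoma, and all 10 fell. By mean over the CD4 libraries, the highest of them were Cr2, Ebf1 and Ms4a1 at 381, 220 and 207 CPM, beside 240 CPM for Cd4. The lowest was Cd79a at 8.82 CPM. The controls were therefore not T cells alone. Of 10 myeloid markers, 5 fell, with a summed level of 147 to 2240 CPM in lymphoma and 754 to 875 CPM in CD4. The part of B cell and myeloid RNA in the lower levels of early genes in lymphoma was not tested.

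The members ranged from far lower to far higher in lymphoma. Fos, Fosb and Jun were lower in every lymphoma than in any CD4 library by the widest margins, and Junb, Jund and Egr3 by smaller ones. Egr1, Egr2 and Nr4a1 overlapped between the groups. Egr4 was read in every tumour and hardly at all in CD4 cells. Summed over the 10 genes, the level was 204 to 345 CPM in lymphoma and 602, 877 and 2510 CPM in CD4 1, 2 and 3. By edgeR's quasi-likelihood test at an adjusted p under 0.05, 7 of the 10 members were called beside 46.6% of all tested genes: 6 were lower in lymphoma beside 21.9%, and 1 was higher beside 24.7%. The groups did not overlap in CPM for 7 members beside 44.9% of all tested genes: 6 were lower in every lymphoma beside 22.3%, and 1 was higher beside 22.6%. These 2 sets of lower genes differ: Egr1 was called but overlapped, and Egr3 did not overlap but was not called. The members were chosen on this contrast, so nothing is read from these counts. The median log2 fold change was -2.10 over the members and 0.04 over all tested genes. In these bulk samples, fewer cells that express a gene and less RNA per cell cannot be told apart.

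**Figure D1:**
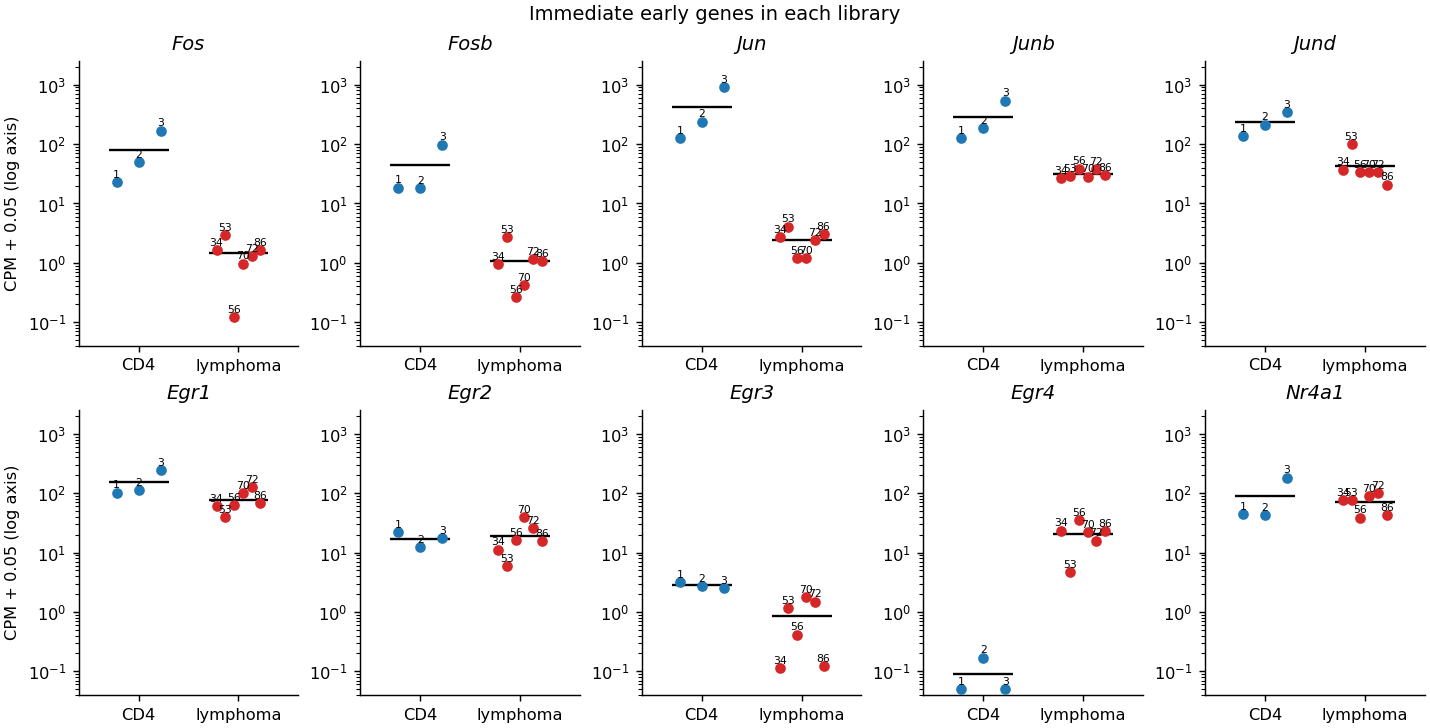
Level of each of the 10 members in each library (points, numbered by library) in CPM plus 0.05 on a log axis, with CD4 in blue, lymphoma in red and group means as bars. Fos, Fosb, Jun, Junb and Jund lie lower in all 6 lymphomas, Egr4 lies higher in all 6, and CD4 3 is the highest control in 7 of the 10 panels.

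The FOS genes came first in depth of difference after Jun. Fos (chromosome 12, 85473890 to 85477273, plus strand, GRCm38), the founding AP-1 partner, was at 22.7, 50.2 and 169 CPM in CD4 1, 2 and 3. In lymphoma its lowest, median and highest levels were 0.0728, 1.42 and 2.92 CPM. The groups did not overlap, and the lowest tumour, lymphoma 56, had 1 Fos count where lymphoma 53, the highest, had 32. The means were 1.39 ± 0.94 CPM in lymphoma (SD, n = 6) and 80.7 ± 78.0 CPM in CD4 (SD, n = 3), a log2 fold change of -5.87 (SE 0.743). Fosb (chromosome 7, 19302696 to 19310051, minus strand), its closest paralogue and the source of the stable ΔFosB splice form, was at 18.4, 18.1 and 98.3 CPM in CD4 1, 2 and 3. Its lowest, median and highest lymphoma levels were 0.218, 0.957 and 2.65 CPM. The groups again did not overlap. Its log2 fold change was -5.45 (SE 0.725). With 3 counts in lymphoma 56 and 29 in lymphoma 53, single Fosb levels among the tumours rest on few reads. Both FOS genes owed part of their CD4 mean to CD4 3, which was 4.65 times the mean of CD4 1 and 2 for Fos and 5.38 times for Fosb. Without CD4 3 the log2 fold changes were -4.70 for Fos and -4.13 for Fosb.

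Jun had the lowest ratio of the 10. Jun (chromosome 4, 95049034 to 95052222, minus strand), the JUN protein with the strongest transactivation, was at 126, 240 and 910 CPM in CD4 1, 2 and 3. Its lowest, median and highest levels in lymphoma were 1.16, 2.5 and 4.02 CPM, which is 16 to 44 counts per library. The groups did not overlap. The means were 2.38 ± 1.10 CPM in lymphoma (SD, n = 6) and 425 ± 424 CPM in CD4 (SD, n = 3), and the log2 fold change was -7.49 (SE 0.644), or -6.26 without CD4 3. Because the strand setting of the read counting is not given in the sources used here, reads of Jun and of the overlapping antisense gene Junos cannot be told apart.

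Junb and Jund kept a clear level in the tumours. Junb (chromosome 8, 84974484 to 84978718, minus strand), a JUN protein that is weaker on single AP-1 sites and is the usual partner of BATF in T cells, was at 126, 186 and 542 CPM in CD4 1, 2 and 3. In lymphoma it had a lowest, median and highest level of 26.6, 29.1 and 38.4 CPM. The tumours were close to each other: the SD of Junb among lymphomas was 0.226 log2 units, at percentile 15.2 of all tested genes. Its log2 fold change was -3.18 (SE 0.360), or -2.30 without CD4 3. Jund (chromosome 8, 70698949 to 70700616, plus strand), the JUN protein that is present in resting cells and least inducible, was at 138, 213 and 344 CPM in CD4 1, 2 and 3. Its lowest, median and highest lymphoma levels were 20.7, 33.7 and 101 CPM. The highest, in lymphoma 53, was still under the lowest control. The log2 fold change of Jund was -2.42 (SE 0.442), and -2.87 without lymphoma 53. Junb and Jund each overlap an annotated gene on the opposite strand (Prdx2 and Gm11175), with the same limit as for Jun.

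Within the JUN family the make-up of the reads differed between the groups. Jun supplied 32.4, 37.5 and 50.7% of the JUN family counts in CD4 1, 2 and 3 and 1.59 to 5.56% in the lymphomas. Jund supplied 38.9 to 75.6% in lymphoma and 19.1 to 35.3% in CD4, and these ranges did not overlap. Junb overlapped, with 21.4 to 55.6% in lymphoma and 29.1 to 32.2% in CD4. The family counts behind these shares were 738 to 1464 per lymphoma and 4082 to 19583 per CD4 library. A share compares the same gene between libraries and does not rank the 3 genes by transcript number, since the reads a gene yields also depend on its sequence.

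**Figure D2:**
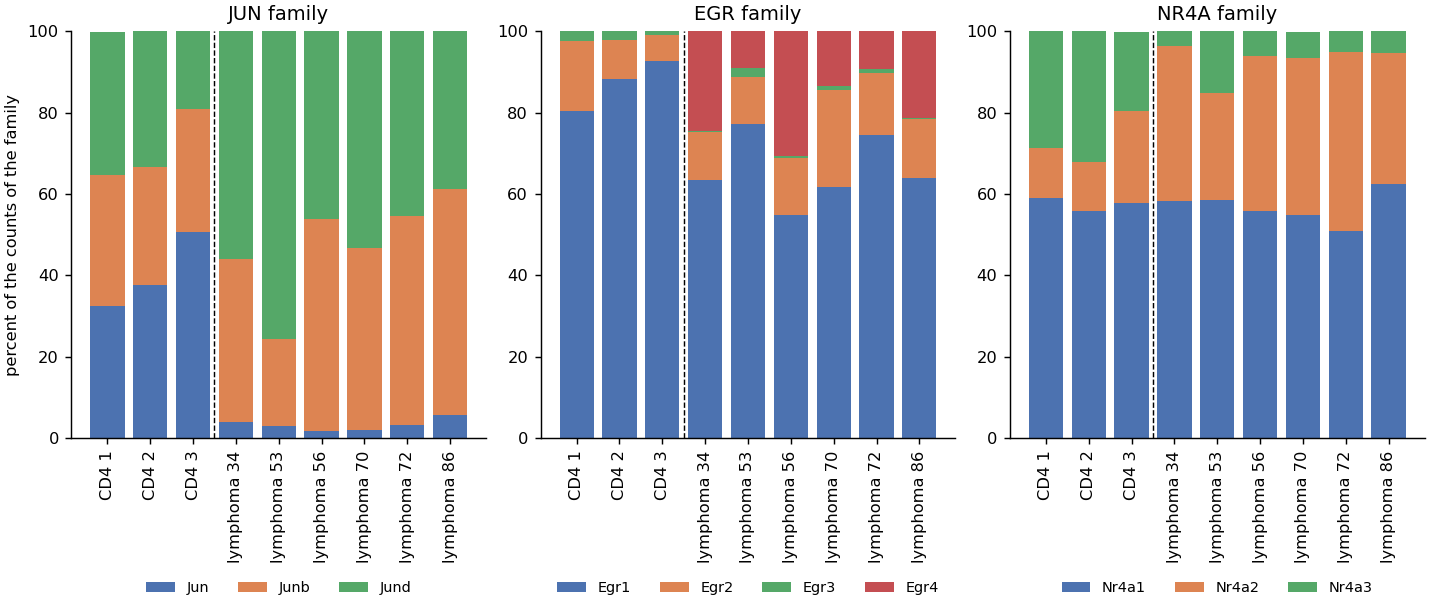
Share of each paralogue in the summed counts of its family (percent, stacked bars, 1 bar per library, CD4 left of the dashed line) for the JUN, EGR and NR4A families. Jun takes 32.4 to 50.7% in CD4 and at most 5.56% in lymphoma, Egr4 takes 9.01 to 30.8% in lymphoma and at most 0.0948% in CD4, and Nr4a1 takes 50.8 to 62.4% across all libraries.

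The EGR genes differed from each other in direction. Egr1 (chromosome 18, 34859823 to 34864984, plus strand), the classical ERK-induced zinc finger factor, was at 102, 112 and 245 CPM in CD4 1, 2 and 3. Its lowest, median and highest lymphoma levels were 39.1, 65.2 and 126 CPM. Lymphoma 72 was above CD4 1 and 2, so the groups overlapped. The log2 fold change of Egr1 was -1.01 (SE 0.362), and it was -0.48 without CD4 3. Egr2 (chromosome 10, 67535475 to 67542188, plus strand), known in T cells for its part in anergy and in early thymocyte development, was at 21.8, 12.2 and 17.2 CPM in CD4 1, 2 and 3. Its lymphoma levels ran from 5.94 CPM in lymphoma 53 through a median of 15.8 to 39.3 CPM in lymphoma 70. The control range lay inside the tumour range, and the log2 fold change was 0.15 (SE 0.483).

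Egr3 (chromosome 14, 70077203 to 70082614, plus strand), which shares targets with Egr2 in T cells, was read at low levels throughout. It was at 3.15, 2.64 and 2.48 CPM in CD4 1, 2 and 3, which is 22 to 33 counts. The lymphoma levels had a lowest, median and highest value of 0.0645, 0.730 and 1.71 CPM. Lymphomas 34 and 86 had 1 Egr3 count each, under the 3 counts that a reading of 0 allows, while lymphomas 70 and 72 had 28 and 22. The groups did not overlap in CPM, and the log2 fold change was -1.78 (SE 0.898).

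Egr4 took the opposite direction. Egr4 (chromosome 6, 85511121 to 85513589, minus strand), the least studied EGR paralogue and an inducible factor described in neurons and activated T cells, had 362, 50, 485, 357, 242 and 314 counts in lymphomas 34, 53, 56, 70, 72 and 86. In CD4 1, 2 and 3 it had 0, 1 and 0 counts. Every tumour was above every control, with the lowest tumour, lymphoma 53, at 4.57 CPM and the highest, lymphoma 56, at 35.3 CPM. The lymphoma mean was 20.6 ± 10.1 CPM (SD, n = 6). Since the CD4 libraries were at or under 3 counts per library, only a bound can be given. Against that floor, 0.36 CPM in the shallowest CD4 library, Egr4 was at least 57.2-fold higher in lymphoma by the mean, and at least 12.7-fold higher in the lowest tumour. Floors cover counting error only. Egr4 supplied 9.01 to 30.8% of the EGR family counts in lymphoma and 0 to 0.0948% in CD4, while Egr1 supplied 54.8 to 77.1% and 80.3 to 92.6%.

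Nr4a1 (chromosome 15, 101254269 to 101274795, plus strand) was at 44.5, 43.2 and 182 CPM in CD4 1, 2 and 3. Its lowest, median and highest levels in lymphoma were 38.7, 76.1 and 101 CPM. Of the 6 tumours, 4 lay between the lower pair of controls and CD4 3, so the position of the group depended on that library. The log2 fold change was -0.35 (SE 0.474) with all libraries and 0.70 without CD4 3, a change of sign. Nr4a2 (Nurr1), a paralogue, was at 9.26, 9.24 and 71.4 CPM in CD4 1, 2 and 3 and at 21.7 to 87.4 CPM in lymphoma. By edgeR's quasi-likelihood test its log2 fold change was 0.65 (SE 0.706, adjusted p = 0.49), and 2.36 (adjusted p = 0.00824) without CD4 3. Nr4a3 (Nor1), the third paralogue, fell by 2.03 on the log2 scale (SE 0.525, adjusted p = 0.00829, edgeR), from 21.6, 24.8 and 61.6 CPM in CD4 to 3.68 to 19.7 CPM in lymphoma, and its fold change was -1.38 (adjusted p = 0.0744) without CD4 3. As shares of the NR4A counts, Nr4a1 overlapped (50.8 to 62.4% in lymphoma and 55.9 to 59.1% in CD4), Nr4a2 was 26.1 to 44.1% in lymphoma and 12.0 to 22.6% in CD4, and Nr4a3 was 3.59 to 15.3% and 19.5 to 32.1%.

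CD4 3 stood apart to a different degree for each member. It was 4.97 times the mean of CD4 1 and 2 for Jun, 4.16 times for Nr4a1, 3.48 times for Junb, 2.30 times for Egr1 and 1.96 times for Jund. For Egr2 and Egr3 it was 1.01 and 0.856 times. Among all tested genes, the log2 ratio of CD4 3 to the other controls put Fos, Fosb, Jun, Junb and Nr4a1 at percentiles 99.5, 99.7, 99.7, 99.0 and 99.4, and Egr2 and Egr3 at 52.6 and 34.1. The B cell markers did not share this pattern, with a summed level of 1280 CPM in CD4 3 and 1540 and 1490 CPM in CD4 1 and 2. The 5 FOS and JUN members stayed lower in every lymphoma than in CD4 1 and 2.

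**Figure D3:**
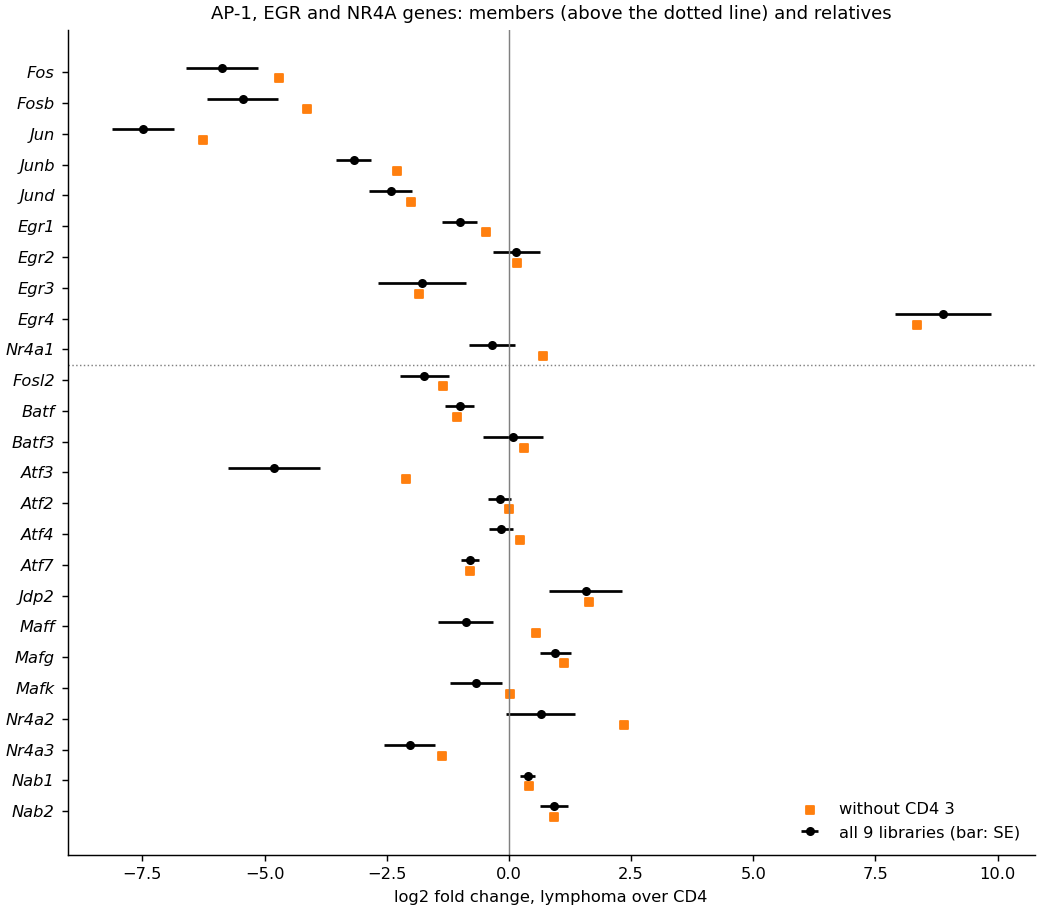
Log2 fold change of lymphoma over CD4 for the 10 members (above the dotted line) and their relatives, with all 9 libraries (black points, bars are 1 SE) and without CD4 3 (orange squares). Jun is lowest at -7.49, Egr4 stands alone at the right with a fitted value that depends on the prior count and is no bound, and Nr4a1 changes sign when CD4 3 is left out.

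The members also differed from each other across the 6 tumours. The SD in log2 CPM was 1.39 for Egr3, 1.28 for Fos, 1.03 for Fosb and 1.01 for Egr4, against a median of 0.466 over all tested genes, and it was 0.595 for Egr1 and 0.575 for Nr4a1. The first 3 of these rest in part on libraries with 1 to 3 counts. In all, 6 relations between members were computed over the 6 lymphomas, a measure the choice of members did not use. Fos and Jun levels varied together, with Pearson r = 0.83 (exact permutation p = 0.00556, 0.0334 after adjustment over the 6) and Spearman rho = 0.89 (exact permutation p = 0.0333, adjusted 0.0999). Fos and Fosb gave r = 0.88 (exact permutation p = 0.0208, adjusted 0.0416) and rho = 0.77 (exact permutation p = 0.103, adjusted 0.206). Egr1 and Egr2 gave r = 0.92 (exact permutation p = 0.0194, adjusted 0.0416) and rho = 0.89 (exact permutation p = 0.0333, adjusted 0.0999). These 3 pairs passed the threshold by r and none of the 6 passed it by rho after adjustment. Leaving out the 2 tumours farthest from the median gave r = 0.95 for Fos and Jun, 0.80 for Fos and Fosb (both without lymphomas 53 and 56) and 0.98 for Egr1 and Egr2 (without 53 and 72).

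The other 3 pairs did not pass. Fos and Egr1 gave r = -0.21 (exact permutation p = 0.672, adjusted 0.672) and rho = -0.60 (exact permutation p = 0.242, adjusted 0.356), with r = -0.73 without lymphomas 53 and 56. Jun and Junb gave r = -0.39 (exact permutation p = 0.442, adjusted 0.53) and rho = -0.14 (exact permutation p = 0.803, adjusted 0.803), with r = -0.50 without lymphomas 56 and 70. Egr1 and Nr4a1 gave r = 0.40 (exact permutation p = 0.424, adjusted 0.53) and rho = 0.54 (exact permutation p = 0.297, adjusted 0.356), with r = 0.57 without lymphomas 53 and 72. The tumour with the highest Fos, Fosb and Jun, lymphoma 53, had the lowest Egr1 and Egr2, and lymphomas 70 and 72 had the highest Egr1, Egr2 and Egr3.

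**Figure D4:**
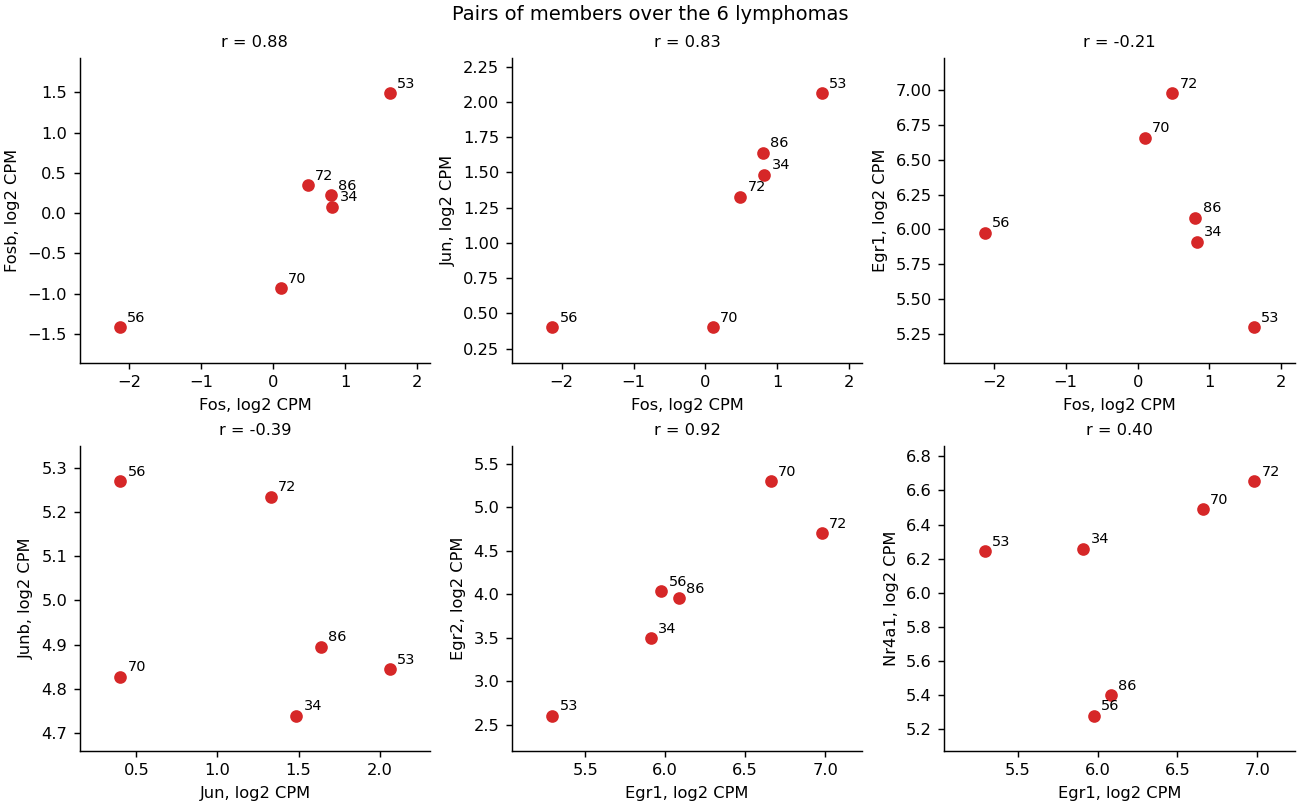
Log2 CPM of 6 pairs of members over the 6 lymphomas (points, numbered by tumour), with Pearson r above each panel. Fos with Fosb, Fos with Jun and Egr1 with Egr2 rise together (r = 0.88, 0.83 and 0.92), and the other 3 panels show no such order.

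The member with the highest fold change and the one with the lowest were followed to the transcripts most like them over all 9 libraries. Over 9415 genes with an average log2 CPM of at least 3, Gmnn (geminin, which restrains DNA replication licensing), Fam96a and Ubr7 were most like Egr4 (Pearson r = 0.995, 0.994 and 0.993). Klf6, Mast4 and D830025C05Rik were most like Jun (r = 0.992, 0.992 and 0.990). The 9 points fall into 2 groups and share their library scaling, so these values mostly describe the step between lymphoma and CD4.

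AP-1 proteins have further dimer partners, and 11 of 13 listed ones were tested. Of the 11, 4 fell (Fosl2, Batf, Atf3 and Atf7) beside 21.9% of all tested genes, and 1 rose (Mafg) beside 24.7%. The median log2 fold change was -0.67 against 0.04 over all tested genes. Without CD4 3, 2 of 12 fell and 1 rose, and Mafg did not pass without CD4 1 or without CD4 2. Fosl2 (Fra-2), the remaining FOS paralogue that was tested, fell by 1.73 on the log2 scale (SE 0.502, adjusted p = 0.014, edgeR), with an adjusted p of 0.0898 without CD4 3. Batf, a dimer partner of JUN proteins in T cells, fell by 1.01 (SE 0.290, adjusted p = 0.0135, edgeR), and did not pass with lymphomas 34, 70 and 72 summed (-0.84). Atf3, a stress-induced repressor, fell by 4.81 (SE 0.950, adjusted p = 0.00192, edgeR), but it was at 3.72, 3.48 and 62.4 CPM in CD4 1, 2 and 3 and the fold change without CD4 3 was -2.10 (adjusted p = 0.0639). Atf7 fell by 0.80 (SE 0.186, adjusted p = 0.00393, edgeR). Mafg, a small MAF protein with no activation domain, rose by 0.95 (SE 0.318, adjusted p = 0.0279, edgeR), with 80.9 to 99.2 CPM in 5 tumours and 29.9 CPM in lymphoma 53. Jdp2, Batf3, Atf2, Atf4, Maff and Mafk did not pass, with log2 fold changes of 1.57, 0.08, -0.19, -0.16, -0.89 and -0.67. Jdp2 was at 0.82 without lymphoma 53, and Atf4, Maff and Mafk were at 0.22, 0.56 and 0.02 without CD4 3. Fosl1 and Batf2 had too few reads to be tested.

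The EGR co-repressors Nab1 and Nab2 were listed with the NR4A paralogues. Of these 4 genes, 1 rose (Nab2) beside 24.7% of all tested genes and 1 fell (Nr4a3) beside 21.9%. Nab2, which is itself induced by EGR proteins and represses them, was at 20.2 to 47.9 CPM in lymphoma and at 19.6, 19.3 and 19.2 CPM in CD4, a rise of 0.92 on the log2 scale (SE 0.288, adjusted p = 0.0202, edgeR), and the rise did not pass without any 1 of the 3 CD4 libraries. Nab1, the constitutive paralogue, had a log2 fold change of 0.38 (SE 0.154, adjusted p = 0.0585, edgeR).

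Other early response genes mostly had the direction of Fos and Jun. Of 26 listed, 24 were tested, and 14 fell beside 21.9% of all tested genes and 1 rose beside 24.7%. The median log2 fold change was -2.04. Without CD4 3, 14 of 25 fell and 2 rose. Klf6, a zinc finger factor, fell by 6.04 on the log2 scale (SE 0.513) from 352, 467 and 1960 CPM in CD4 1, 2 and 3 to 9.37 to 18.7 CPM in lymphoma, and its fold change was -4.86 without CD4 3. Rgs1, a brake on chemokine receptor signalling, fell by 5.75 (SE 0.711) from 52.1, 85.2 and 230 CPM in CD4 1, 2 and 3, and its fold change was -4.92 without CD4 3. Klf10, a TGF-beta induced factor, rose by 2.32 (SE 0.228) to 33.1 to 40.7 CPM from 5.76 to 9.83 CPM. Dusp1, a phosphatase of MAP kinases, and Zfp36, which destabilises early messenger RNAs, were picked after their values were seen: Dusp1 was at 25.8, 47.0 and 203 CPM in CD4 1, 2 and 3 and at 5.66 to 12.9 CPM in lymphoma, and Zfp36 at 84.3, 106 and 294 CPM and at 13.2 to 26.0 CPM. The summed level of this list was 1110 to 1370 CPM in lymphoma and 3030 to 6570 CPM in CD4.

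**Figure D5:**
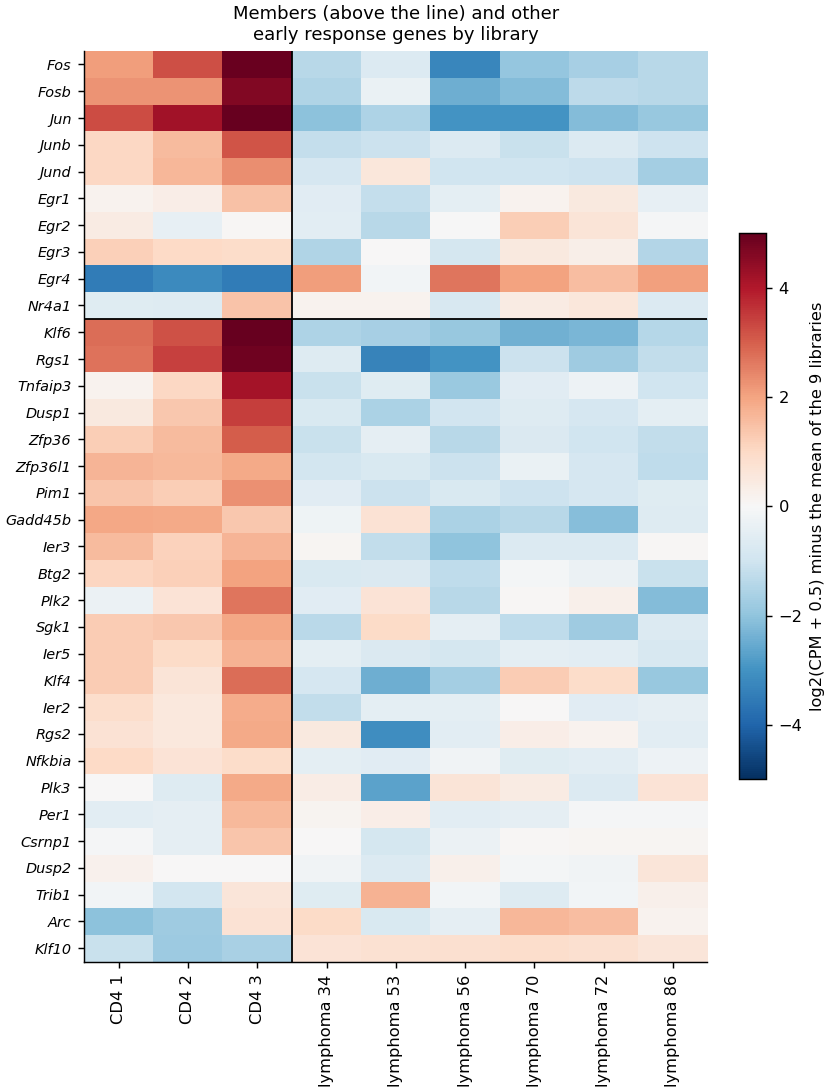
Level of the 10 members (above the line) and of the 24 tested early response genes in each library, as log2 of CPM plus 0.5 minus the mean of the gene over the 9 libraries (red above, blue below). Most genes are red in CD4 and deepest in CD4 3, while Egr4 and Klf10 are blue in CD4.

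Factors and kinases upstream of the members were listed next. Of 17 tested SRF, TCF, CREB, MEF2 and NFAT genes, 7 fell beside 21.9% of all tested genes and 0 rose beside 24.7% by edgeR. The number of rises was 1 at an unadjusted p under 0.05, 0 with DESeq2 and 1 with limma voom. The median log2 fold change was -0.59. Nfatc1 fell by 1.62 on the log2 scale (SE 0.196). Mef2c fell by 7.14 (SE 0.352), at 257 to 300 CPM in CD4 and 0.851 to 3.47 CPM in lymphoma. Mef2c is also expressed by B cells, whose markers moved with it, and their part in its fall was not tested. Among 16 ERK, JNK and p38 pathway kinases, 3 rose beside 24.7% of all tested genes and 3 fell beside 21.9%, shares no larger than over all genes, with a median log2 fold change of 0.06. The ERK kinase Mapk3 rose by 0.58 (SE 0.191) but did not pass without CD4 2 or without CD4 3, and the upstream kinases Map2k1 and Braf fell, at -1.28 (SE 0.211) and -0.80 (SE 0.204) on the log2 scale. Outside the naming rule, Rps6ka3 also rose and Araf also fell. Leaving out CD4 2 or CD4 3 left 1 of the 16 kinases that rose.

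Most tested targets of AP-1, NFAT, EGR and NR4A factors in activated T cells fell in lymphoma. Of 22 listed, 20 were tested, and 14 fell beside 21.9% of all tested genes and 1 rose beside 24.7%. The median log2 fold change was -2.93. The rise was Id3, an EGR target in thymocytes, named after its values were seen, which did not pass without CD4 2 or without CD4 3. Among the 5 not called was Il2, also named after its values were seen. Its log2 fold change was 0.81 (SE 0.592, adjusted p = 0.291, edgeR), at 1.8 to 8.49 CPM in lymphoma and 1.32 to 2.94 CPM in CD4. Il2ra, the interleukin-2 receptor alpha chain, fell by 7.92 on the log2 scale (SE 0.541), from 55.1, 47.4 and 55.4 CPM in CD4 1, 2 and 3 to 0 to 0.393 CPM. Cd40lg, the CD40 ligand, fell by 7.0 (SE 0.642). The part of cell type in the falls of this list was not tested. The heat and handling stress list was mixed: of 13 genes, 6 rose beside 24.7% of all tested genes and 4 fell beside 21.9%. The median was -0.04, and 3 rose without CD4 2. Hspd1, a mitochondrial chaperone, rose by 2.5 (SE 0.297) and Bag3, a chaperone partner, by 1.36 (SE 0.281). The inducible heat shock genes Hspa1b and Hspa1a fell, at -6.43 (SE 0.618) and -6.22 (SE 0.579) on that scale, and being near-identical copies they may share reads. Hspa1a was at 32.3, 68.0 and 118 CPM in CD4 1, 2 and 3, so it was highest in the library where Fos and Jun were highest. Dnaja1 and Dnajb1, named after their values were seen, were the other stress genes that fell. The part of handling in the levels of the members was not tested.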

How the data were processed

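The authors' deposited table holds raw read counts per Ensembl gene for 9 libraries (46078 genes and 5 summary lines, which were left out). FastQC, HISAT2, SAMtools and HTSeq are named per the submitters' processing notes, with genome builds mm10 and GRCm38. Annotation release, strand setting and versions are not given in the sources used here. Samples were grouped by the labels. Counts were fitted with edgeR 4.0.16 in R 4.3.3 (TMM scaling, filterByExpr with a minimum count of 10, robust quasi-likelihood test, Benjamini-Hochberg adjustment over 15401 genes, threshold 0.05), and the fit was tested on simulated data. The biological coefficient of variation was 0.462. "Rose" and "fell" refer to listed genes past this threshold, and adjusted p-values come from this test. Over all tested genes, 24.7% were higher and 21.9% lower in lymphoma at this threshold, for comparison with the counts of every list. CPM used TMM-scaled library sizes, log2 CPM a prior count of 2, and a count of 0 was read as at most 3 counts per library. SEs were derived from each log2 fold change and its F statistic. SDs are over samples. Alternatives used limma 3.58.1 voom and DESeq2 1.42.0, other scalings, filters and sets of libraries. Leaving out lymphoma 53 and CD4 3 together was chosen after seeing the data. Correlations used scipy 1.17.1 with exact two-sided permutation of pairings. Gene positions came from GENCODE M21 and promoter windows from RefSeq (GRCm38.p6).

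The members, gene lists and naming rule were chosen with earlier results of these data known. The rule named all members, their listed relatives, up to 2 rises and 2 falls without overlap per other list, and the 3 genes most like the highest and lowest member. A gene that the rule names is not reported here. The remaining marker lists gave 2 rises and 2 falls among 7 tested stromal, endothelial and thymic epithelial markers (97.7 to 180 CPM summed in lymphoma, 221 to 240 in CD4, Cdh5 at 0 in all lymphomas and Dcn, Foxn1, Krt5 and Krt8 at 0 in all CD4 libraries) and 0 edgeR calls among 7 erythroid markers (12.2 to 889 and 100 to 359 CPM), as at an unadjusted p under 0.05, with DESeq2 and with limma voom.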

Additional observations from a re-analysis of the deposited data

Results flagged for a closer look

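A search for a lymphoma far from the other 5 examined 42 genes. They were the members, their listed relatives and the rises and falls that the naming rule took from the other lists. The remaining genes of those other lists were not examined. Of the 42, 6 had such a lymphoma, where chance gives about 1 in 20 genes, or 2.1. In each case the library was lymphoma 53. The figure of 2.1 treats the 42 genes as independent, which genes of 1 library are not, so no excess over chance is read from it. Among the members, Fosb was at 2.65 CPM there and at 0.218 to 1.11 CPM in the other 5 tumours, and Jund was at 101 CPM there against 20.7 to 37.2 CPM. Among the relatives, Batf was at 22.5 CPM (others 8.64 to 12.4), Jdp2 at 22.3 CPM (others 2.49 to 6.45) and Batf2, a gene with few reads, at 1.46 CPM (others 0 to 0.361). Mafg was the one with a low value, 29.9 CPM against 80.9 to 99.2 CPM.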

How the results depend on the processing

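Each gene was refitted under up to 18 alternatives, and 16 of the 30 named genes that are not members kept their direction and their side of the threshold in all that could be run. The members are given by the range of their log2 fold change alone: -6.31 to -4.70 for Fos, -5.95 to -4.13 for Fosb, -7.92 to -6.26 for Jun, -3.52 to -2.27 for Junb, -2.87 to -2.01 for Jund, -1.22 to -0.34 for Egr1 and -2.55 to -1.49 for Egr3. Fitted values of Egr4 are no measure of size at 0, 1 and 0 control counts. Egr2 turned to -0.02 with limma voom, -0.14 without lymphoma 70, -0.03 without CD4 2 and -0.07 with lymphomas 34, 70 and 72 summed, and leaving out 1 library gave -0.14 to 0.39. Nr4a1 turned to 0.70 without CD4 3 and 0.68 without lymphoma 53 and CD4 3, with -0.68 to 0.70 over single libraries left out. Batf3 turned to -0.04 with upper quartile scaling, -0.00 with library size alone, -0.32 with limma voom, and -0.21, -0.25 and -0.07 without lymphoma 56, lymphoma 86 and CD4 1, with 0.31 as the highest value when 1 library was left out. Without CD4 3, Atf4 turned to 0.22, Maff to 0.56 and Mafk to 0.02, and without lymphoma 53 as well Atf2 turned to 0.11, Atf4 to 0.10 and Maff to 0.48. With 1 library left out, the lowest values were -0.38 for Atf4, -1.28 for Maff and -0.92 for Mafk. The cause was not tested.

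The number of members called higher was 1, and 0 where at least 10 counts were required in every library, a filter that Egr4 cannot pass. Nothing is read from such counts of members, which were chosen on this contrast. Leaving out 1 library gave 5 to 6 members lower and 1 higher, 5 to 14 listed genes higher (5 without CD4 2, from 13 with all) and 41 to 52 lower, and 3143 to 4207 of all tested genes higher and 2728 to 3930 lower. No paired analysis was possible because the groups share no replicate numbers. Depth limits Fos, Fosb and Egr3 within the tumours, where single libraries had 1 to 3 counts, and Egr4 in the controls. With 6 samples the relations between members are imprecise, and r ranged from -0.89 to 0.24 for Fos and Egr1 when 1 tumour was left out. Their permutation p-values treat the 6 tumours as independent, which was not tested. Cd4 was at 62.6, 48.6 and 71.9 CPM in lymphomas 34, 70 and 72 and at 13.8, 6.04 and 9.02 CPM in 53, 56 and 86. The relations were not computed with lymphomas 34, 70 and 72 summed.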
